A study of Mus musculus with 4 samples.

Results

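Cytochrome P450 genes encode heme enzymes that oxidize lipophilic molecules, and 31 of them were measured here in the newborn mouse lung. The members are the protein-coding genes of the deposited table whose symbol is Cyp followed by a family number, a single letter and a number, without Cyp51, and whose normalized count averaged at least 10 over the 4 libraries. Of 93 genes with such a symbol, 62 lay below that level, among them 22 that stood at 0 in every library; the table has 48709 genes, of which 18436 reached the same level and were tested. RNA came from the left lung lobe of C57BL/6 mice at postnatal day 1, untreated, with 2 mice homozygous for the SL allele of Ryk (genotype RykSL/SL, called mutant here), a WNT receptor gene, and 2 wild-type mice. Each library is 1 mouse; the labels give neither sex nor litter, leave the effect of the SL allele unstated, and do not say whether the wild-type mice were littermates of the mutants.

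P450 enzymes use a heme iron and electrons from NADPH to insert oxygen into their substrates. Most sit in the endoplasmic reticulum and receive electrons from the reductase encoded by Por, while some sit in mitochondria and use ferredoxin. Families 1 to 3 mainly handle foreign compounds, family 4 and the Cyp2j enzymes fatty acids and eicosanoids, family 26 retinoic acid, and other families sterols, vitamin D and steroid hormones. In the mouse lung, club cells of the airway are rich in these enzymes, and Cyp2f2 is widely known there for converting naphthalene into a toxic epoxide.

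The library values summed to between 18658239 and 19987634, and Ryk itself stood at 2757 and 2203 in mutant replicates 1 and 2 against 2528 and 2525 in wild-type replicates 1 and 2, the order used for all values that follow. Mutant replicate 1 had 24836 normalized counts of Xist, which is made from the inactive X chromosome, against 7 to 23 in the other lungs, and 56 of the Y-linked gene Ddx3y against 2197 to 3769. In that lung this difference and the genotype cannot be told apart, so results that rest on 1 mutant lung are given with and without it. The mutant lungs also differed more from each other (SD of the log2 difference over genes 0.60) than the wild-type lungs did (0.314).

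None of the 31 P450 genes passed the test between genotypes at an adjusted p under 0.05 (limma), against 2.39% of all tested genes (1.47% higher and 0.917% lower in the mutant). The smallest adjusted p was 0.0629, for Cyp3a13. At an unadjusted p under 0.05 there were 11 members (35.5%, against 20.1% of all tested genes), 9 with higher and 2 with lower values in the mutant (10.4% and 9.64% of all tested genes). The genotypes did not overlap in 19 members (61.3%, against 52.6% of all tested genes), with both mutant lungs above both wild-type lungs in 14 members and below them in 5, where all tested genes gave 25.7% and 26.9%. With libraries scaled to equal totals these counts were 13 and 7, against 20.8% and 34.6% of all genes. The median log2 fold change over the members was 0.36 and over all tested genes -0.016. These counts and this median describe only the members that reached the level filter; 5 of them had a mean under 10 in 1 genotype, Cyp2d26 and Cyp2t4 in the wild type and Cyp2u1, Cyp11a1 and Cyp4f15 in the mutant, and so passed through the genotype in which they were higher. No count or median over these members therefore bears on a shift of P450 genes as a group. Just inside the filter were Cyp11a1 (mean 10.25) and Cyp4f15 (mean 11), and just outside were Cyp1a2 (9.75), Cyp4a32 (9.25) and Cyp2d9 (9). Cyp1a2 had 3 and 5 against 13 and 18, and Cyp4a32 had 12 and 16 against 5 and 4; neither was tested.

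Each fold change is the mutant mean minus the wild-type mean of log2(value + 1), so changes of low genes are understated, and p-values are limma's with Benjamini-Hochberg adjustment over the 18436 genes; a value after ± is a standard error. Leaving out mutant replicate 1 changed the calls. Without that lung 3 members passed, Cyp1b1, Cyp2d22 and Cyp2t4, all higher in the remaining mutant lung, beside 12.9% of all tested genes (6.5% higher and 6.43% lower). Without mutant replicate 2, wild-type replicate 1 or wild-type replicate 2 no member passed in limma, and no gene at all passed in these fits. Mutant replicate 2 was the farther of both mutant lungs from the wild-type mean in 20 of the 31 members. The same was not counted over all tested genes, so this does not set the members apart.

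The members' levels can be compared with each other only per length, here as normalized count per kilobase of exon. Cyp2f2 was at the top in the wild type with a mean of 3180.99 per kilobase, 6.96 times that of Cyp4b1 (457.23), and the ranges of the wild-type lungs did not overlap between them. Cyp2s1 (254.25) and Cyp20a1 (225.28) followed, with overlapping ranges, then Cyp1a1 (186.76), Cyp39a1 (160.01), Cyp4v3 (105.83) and Cyp2d22 (105.78). A further 15 members lay between 10 and 100 per kilobase, and 8 lay below 10, the lowest being Cyp2d26 (2.79). Of the 30 pairs of neighbours in this order, 11 had wild-type ranges that did not overlap. In the mutant the first 3 places were the same by mean, whereas Cyp1a1 stood at place 13 in place of 5, Cyp2d22 at 4 in place of 8 and Cyp1b1 at 8 in place of 18.

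**Figure D1:**
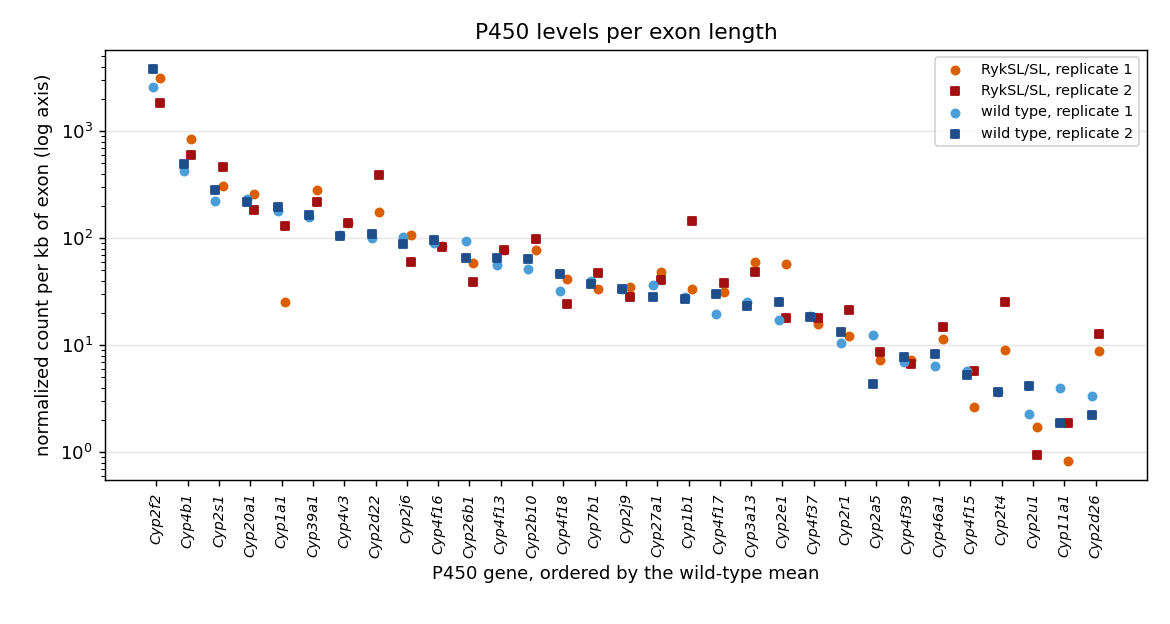
Normalized count per kilobase of exon (log axis) for the 31 P450 genes, ordered along the x axis by the wild-type mean; each point is 1 lung, orange and red for mutant replicates 1 and 2, light and dark blue for wild-type replicates 1 and 2. Cyp2f2 stands above all others in every lung, and the mutant points of Cyp1a1, Cyp1b1, Cyp2d22, Cyp2t4 and Cyp2e1, among others, lie away from the order set by the wild type.

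Family 1 is shown with its promoters, because its 2 members had opposite differences and are both textbook targets of the aryl hydrocarbon receptor, which binds DNA that contains the core letters GCGTG. The sequences are the 250 bases before the start site in RefSeq (GRCm38.p6), written 5′ to 3′ on the gene's strand in lower case; capitals mark GCGTG, or CACGC where it is on the other strand. The Cyp1a1 sequence is from chr9:57697363-57697612, plus strand, and that of Cyp1b1 from chr17:79715062-79715311, minus strand.
Cyp1a1: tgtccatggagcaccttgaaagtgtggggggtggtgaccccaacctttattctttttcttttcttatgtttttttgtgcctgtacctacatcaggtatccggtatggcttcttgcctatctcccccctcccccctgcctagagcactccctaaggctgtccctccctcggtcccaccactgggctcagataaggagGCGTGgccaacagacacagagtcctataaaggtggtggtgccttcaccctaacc
Cyp1b1: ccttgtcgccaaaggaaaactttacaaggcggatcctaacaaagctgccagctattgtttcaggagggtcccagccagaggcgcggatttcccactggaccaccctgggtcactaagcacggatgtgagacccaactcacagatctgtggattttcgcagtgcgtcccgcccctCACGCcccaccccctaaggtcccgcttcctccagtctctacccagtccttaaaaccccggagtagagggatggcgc
Each sequence holds a single match, which begins 54 bases before the start site in Cyp1a1 and 76 bases before it, on the other strand, in Cyp1b1. Whether the receptor binds at these matches was not tested, and bases outside the 250 were not searched. Cyp1a1 also has the TATA box letters TATAAA 30 bases before its start, and Cyp1b1 has no such match in this window. GCGTG on either strand occurs in 28.2% of the 32851 promoter sequences of this length, and in 9 of the 26 members found in the RefSeq table. Not found in that table were Cyp2d22, Cyp2u1, Cyp39a1, Cyp4f17 and Cyp7b1.

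Cyp1a1 (chromosome 9, positions 57697613 to 57703822, GRCm38), which oxidizes polycyclic aromatic hydrocarbons, had 71 and 363 normalized counts against 500 and 541. Both mutant lungs lay below both wild-type lungs, but mutant replicate 1 lay far lower than mutant replicate 2. Its log2 fold change was -1.69 ± 0.69 (limma, adjusted p = 0.248), at -2.86 without mutant replicate 2 and -0.52 without mutant replicate 1. Cyp1b1 (chromosome 17, positions 79706953 to 79715041), which oxidizes hydrocarbons and estrogens, had 198 and 852 against 165 and 158. Here mutant replicate 2 stood alone, and mutant replicate 1 was close to the wild type. The log2 fold change of Cyp1b1 was 1.34 ± 0.624 (adjusted p = 0.294), and it was 2.39 without mutant replicate 1 and 0.29 without mutant replicate 2.

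Of 9 other genes listed as targets of this receptor none passed, and their median log2 fold change was -0.04. The receptor gene Ahr had 2469 and 1447 against 2554 and 2767. Tiparp, a target that restrains the receptor, had 1716 and 3019 against 1424 and 1311 (adjusted p = 0.212), and was highest in mutant replicate 2, as Cyp1b1 was. Aldh3a1, an aldehyde dehydrogenase, had 120 and 169 against 54 and 88 (adjusted p = 0.159). Ahrr, the receptor's repressor, had 7 and 8 against 17 and 9. Nqo1, a quinone reductase, had 96 and 110 against 115 and 97, overlapping between genotypes.

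**Figure D2:**
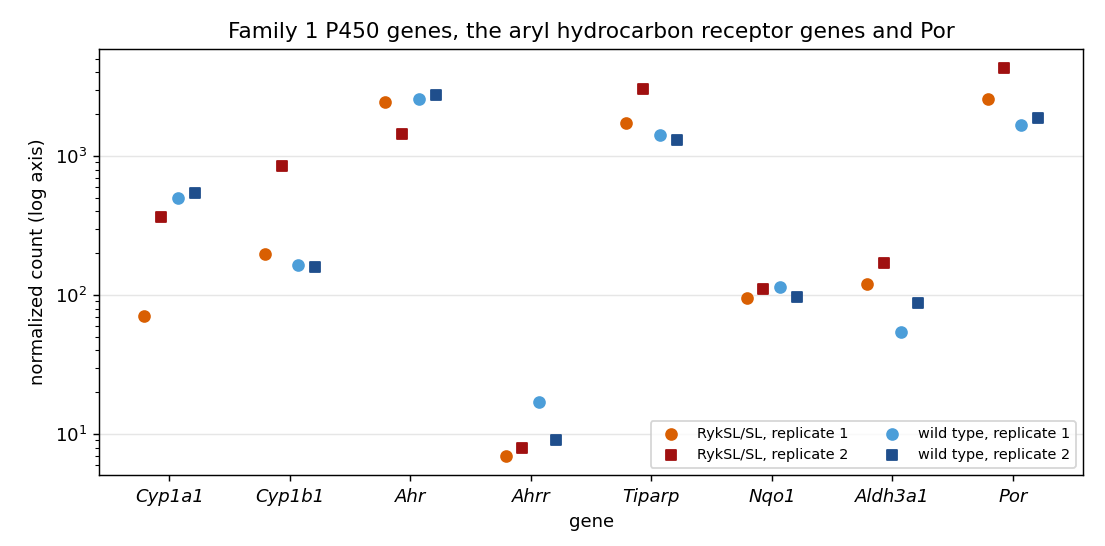
Normalized counts (log axis) of Cyp1a1, Cyp1b1, the receptor gene Ahr, 4 other targets of the receptor and the reductase gene Por; each point is 1 lung, coloured as in the plot of levels per kilobase. Cyp1a1 is low in mutant replicate 1 (71), Cyp1b1 is high in mutant replicate 2 (852), and none of the genes shown passed the test.

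Of the 11 members in families 1 to 3 that act mainly on foreign compounds, 7 lay above the wild type in both mutant lungs and 1, Cyp1a1, lay below (63.6% and 9.09%, against 25.7% and 26.9% of all tested genes). None passed. Of these 7, Cyp2d26 and Cyp2t4 had wild-type means of 5 and 6 and so passed the level filter through the mutant. Cyp1a2, with 3 and 5 against 13 and 18, fell just below the filter. These counts therefore do not bear on a shift of such members as a group. Cyp3a13 (chromosome 5, positions 137892932 to 137921619), of the family that metabolizes many drugs and steroids, had 176 and 143 normalized counts against 75 and 69. The genotypes did not overlap, and the lungs within each were close. Its log2 fold change was 1.13 ± 0.217 (limma, adjusted p = 0.0629), between 0.98 and 1.28 when any 1 lung was left out.

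Cyp2d22 (chromosome 15, positions 82370528 to 82380260), of the subfamily that oxidizes many amine drugs, had 693 and 1508 against 395 and 432. Both mutant lungs were higher, mutant replicate 2 the more so. This gave a log2 fold change of 1.31 ± 0.351 (adjusted p = 0.128), 1.87 without mutant replicate 1 and 0.75 without mutant replicate 2. Cyp2d26, from the same cluster on chromosome 15, had 16 and 23 against 6 and 4 (log2 fold change 1.77 ± 0.456, adjusted p = 0.119). Values this low rest on few reads, and 9.5% of the 50-base sequences of Cyp2d26 transcripts occur in other genes, first among them Cyp2d22. Of those of Cyp2d22, 4.1% were shared in that way.

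Within 1 stretch of chromosome 7, from 25802475 to 27158668, lie Cyp2s1, Cyp2b10, Cyp2a5, Cyp2f2 and Cyp2t4, and these neighbours did not share a pattern. Cyp2t4, whose substrates are little known, had 15 and 42 against 6 and 6. Both mutant lungs were above the wild type, by 1.19 and 2.62 on the log2 scale. Its log2 fold change was 1.91 ± 0.559 (adjusted p = 0.149), at 2.62 without mutant replicate 1 and 1.19 without mutant replicate 2. Cyp2b10, a phenobarbital-inducible enzyme, had 163 and 209 against 110 and 135 (0.59 ± 0.224, adjusted p = 0.221). Cyp2s1, an epithelial enzyme, had 1508 and 2267 against 1106 and 1405 (0.57 ± 0.234, adjusted p = 0.251), with a log2 fold change of 0.27 without mutant replicate 2 and 0.86 without mutant replicate 1. In both genes the mutant values lay above the wild-type values, with a gap that was small beside the distance between the mutant lungs in Cyp2s1. Of Cyp2s1 exons, 260 bases lie opposite exons of the noncoding gene Gm26707, which had 4 to 8 normalized counts.

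Cyp2f2 (chromosome 7, positions 27119909 to 27133660) had 6416 and 3690 normalized counts against 5239 and 7644. The genotypes overlapped, with mutant replicate 2 lowest and wild-type replicate 2 highest. The log2 fold change of -0.38 ± 0.31 (limma, adjusted p = 0.541) became 0.02 without mutant replicate 2. Opposite 274 bases of its exons lies Gm15883, with 32 and 95 against 41 and 64. Cyp2f2 made up 42.2% and 26.76% of the summed P450 counts against 43.68% and 51.53%. The sum of the other 30 members was 8789 and 10100 against 6756 and 7190, and the sum of all 31 was 15205 and 13790 against 11995 and 14834. So the summed values overlapped with Cyp2f2 and did not overlap without it. The sum without it is weighted to the members with the next highest counts, Cyp2s1, Cyp4b1 and Cyp2d22. Values of 52.6% of all tested genes also did not overlap. Neither sum therefore bears on a shift of P450 genes as a group. In whole lung, fewer club cells and less RNA per club cell cannot be told apart. None of 10 club cell markers passed (median log2 fold change 0.04), and their summed values were 92738 and 122639 against 108637 and 113845. Both mutant lungs were above the wild type in 2 of these markers and below it in 3. Scgb1a1, which defines these cells, had 38846 and 35648 against 42922 and 46415, whereas the secretoglobin gene Scgb3a1 had 875 and 730 against 513 and 422, and Scgb3a2 overlapped between genotypes. The part of the club cell share in the P450 values was not tested.

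Cyp2e1, the ethanol-inducible enzyme, and Cyp2a5, a nicotine and coumarin oxidase, overlapped between genotypes. Cyp2e1 had 125 and 39 against 37 and 55. Only mutant replicate 1 was high, and the log2 fold change of 0.62 ± 0.555 (adjusted p = 0.575) became -0.21 without that lung. Of 10 hepatocyte markers only 3 were high enough to test and none passed. Alb had 51 and 26 against 16 and 11 and Trf 635 and 336 against 365 and 353, both highest in the same lung as Cyp2e1, whereas Apoa1 had 21 and 29 against 6 and 10 and was highest in mutant replicate 2. The 10 summed to 745 and 421 against 401 and 382, mostly from Trf. Among those too low to test, Ahsg had 15 and 12 against 4 and 2 and Apoh 10 and 8 against 0 and 1. Ttr had 3 and 4 against 0 and 0, whereas Apoa2 went the other way, with 3 and 4 against 10 and 5. The part of liver RNA in the P450 values, those of the low member Cyp2d26 included, was not tested. Cyp2a5 had 15 and 18 against 26 and 9, and 37.0% of its 50-base sequences occur in other genes, chiefly Cyp2a4, so that these reads cannot be assigned with certainty. Its log2 fold change was 0.09 (adjusted p = 0.949), -0.63 without wild-type replicate 2 and -0.04 without mutant replicate 2.

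**Figure D3:**
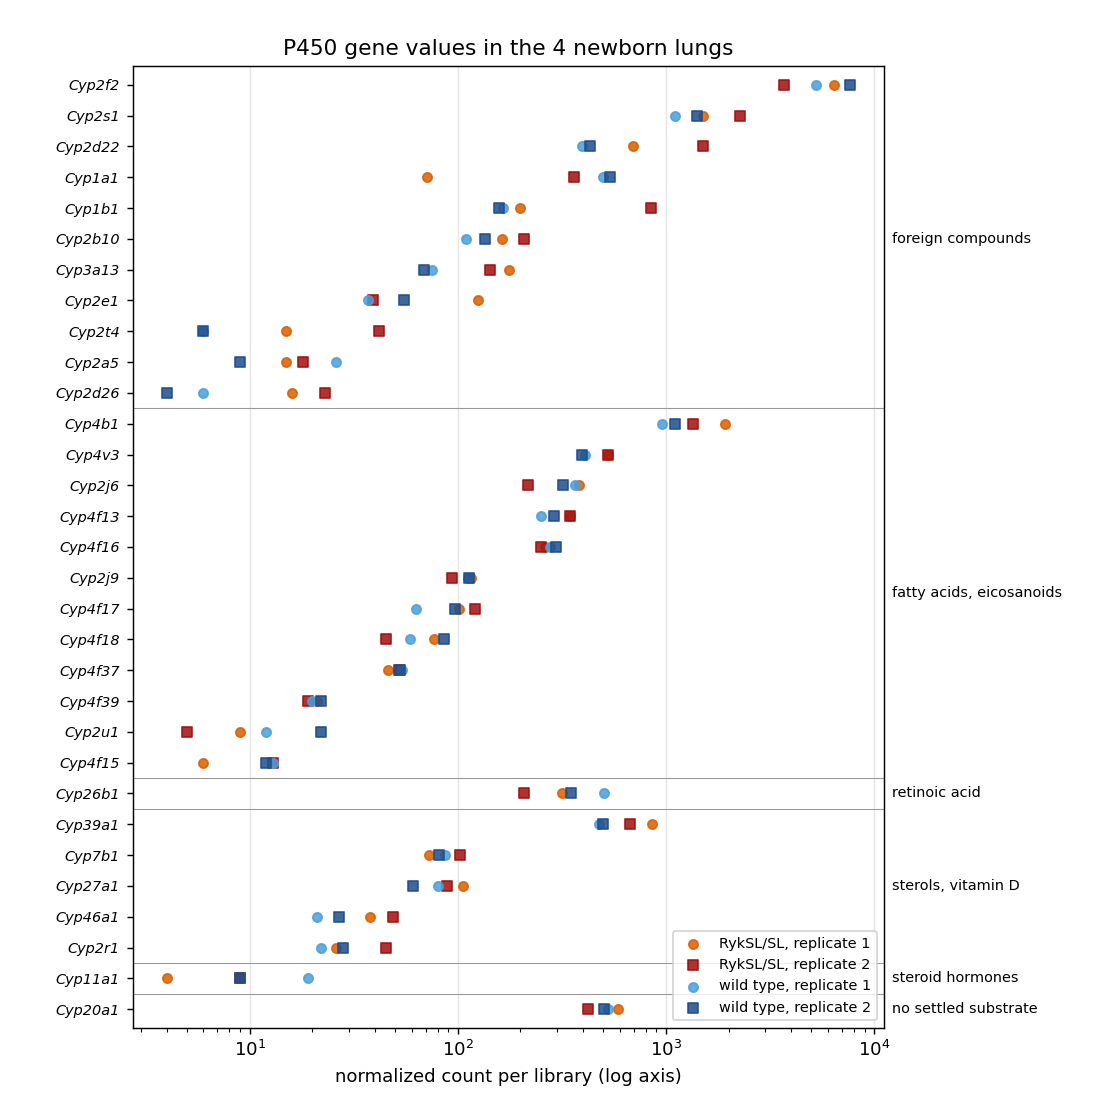
Normalized counts (log axis) of the 31 P450 genes, in rows grouped by the substrates named at the right and ordered by mean; each point is 1 lung, orange and red for the mutants, light and dark blue for the wild type. Most rows show points within a narrow span. In 5 of the 31 genes, Cyp1a1, Cyp1b1, Cyp2e1, Cyp2t4 and Cyp2d22, the mutant lungs lie more than 1 apart on the log2 scale. Among all tested genes 7.7% did so.

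Enzymes for fatty acids and eicosanoids made up 12 members, of which none passed, 4 lay above and 3 below the wild type in both mutant lungs (33.3% and 25.0%, near the 25.7% and 26.9% of all tested genes), and the median log2 fold change was -0.12. Cyp4b1 (chromosome 4, positions 115624725 to 115647723), a lung enzyme that oxidizes fatty acids and some furans, had 1911 and 1349 against 952 and 1111. All mutant values were higher, with a log2 fold change of 0.64 ± 0.204 (limma, adjusted p = 0.170), at 0.39 without mutant replicate 1 and 0.89 without mutant replicate 2. Of its 50-base sequences, 8.3% occur in the pseudogenes Cyp4b1-ps1 and Cyp4b1-ps2, which had 54 and 28 against 24 and 31 and 84 and 48 against 70 and 62. Both pseudogenes therefore had their highest value in mutant replicate 1, as Cyp4b1 did, but overlapped between genotypes.

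Cyp4v3, a fatty acid hydroxylase, gave almost equal values within each genotype, 525 and 526 against 409 and 397. The difference of 0.38 ± 0.143 on the log2 scale did not pass (adjusted p = 0.219), and 313 bases of its exons overlap those of Gm45753 on the same strand. Cyp4f13 stood at 346 in both mutant lungs and at 252 and 289 in the wild type (0.36 ± 0.163, adjusted p = 0.288).

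The Cyp4f genes, whose enzymes hydroxylate leukotrienes and long fatty acids, differed among themselves although 6 of them lie together on chromosome 17. From start to end of the cluster, Cyp4f39 had 21 and 19 against 20 and 22, Cyp4f17 had 101 and 121 against 63 and 97, and Cyp4f16 had 262 and 252 against 277 and 296. Beyond them Cyp4f37 had 46 and 52 against 54 and 53, and Cyp4f15 had 6 and 13 against 13 and 12, before Cyp4f13. Cyp4f17 and Cyp4f13 were thus higher and Cyp4f16 and Cyp4f37 lower in both mutant lungs, with log2 fold changes of 0.49, 0.36, -0.16 and -0.13 and adjusted p from 0.288 to 0.815. That of Cyp4f17 was 0.19 without wild-type replicate 1 and 0.80 without wild-type replicate 2, and that of Cyp4f37 was -0.04 without mutant replicate 1 and -0.21 without mutant replicate 2. Cyp4f16 and Cyp4f37 share 17.4% and 19.7% of their 50-base sequences with other genes, each chiefly with the other. Cyp4f15 was low in mutant replicate 1 alone, with -0.95 there and 0.05 in mutant replicate 2 against the wild-type mean. Cyp4f39 had a log2 fold change of -0.07 and Cyp4f18, on chromosome 8, of -0.27, with 77 and 45 against 59 and 86. Of the exons of Cyp4f18, 181 bases lie opposite exons of Zfp961, which had 398 and 396 against 420 and 372, several times the values of Cyp4f18. Since the notes do not say how counting treated strand, reads from these opposite exons may not have been told apart. Without mutant replicate 2 the difference was 0.001 in Cyp4f39 and 0.11 in Cyp4f18, so neither kept its direction.

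Cyp2j6 and Cyp2j9, neighbours on chromosome 4 from the subfamily that makes epoxides of arachidonic acid, overlapped between genotypes. Cyp2j6 had 383 and 217 against 367 and 320, and Cyp2j9 had 116 and 94 against 112 and 113. In both, mutant replicate 2 was the lowest lung. The log2 fold changes were -0.25 and -0.11, and 0.16 and 0.04 without mutant replicate 2. Cyp2u1, a long-chain fatty acid hydroxylase, was low throughout, with 9 and 5 against 12 and 22 (-1.16 ± 0.512, adjusted p = 0.276), at -0.75 without wild-type replicate 2. Opposite 548 bases of its exons lies 4930534D22Rik, with 0 and 0 against 1 and 0.

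**Figure D4:**
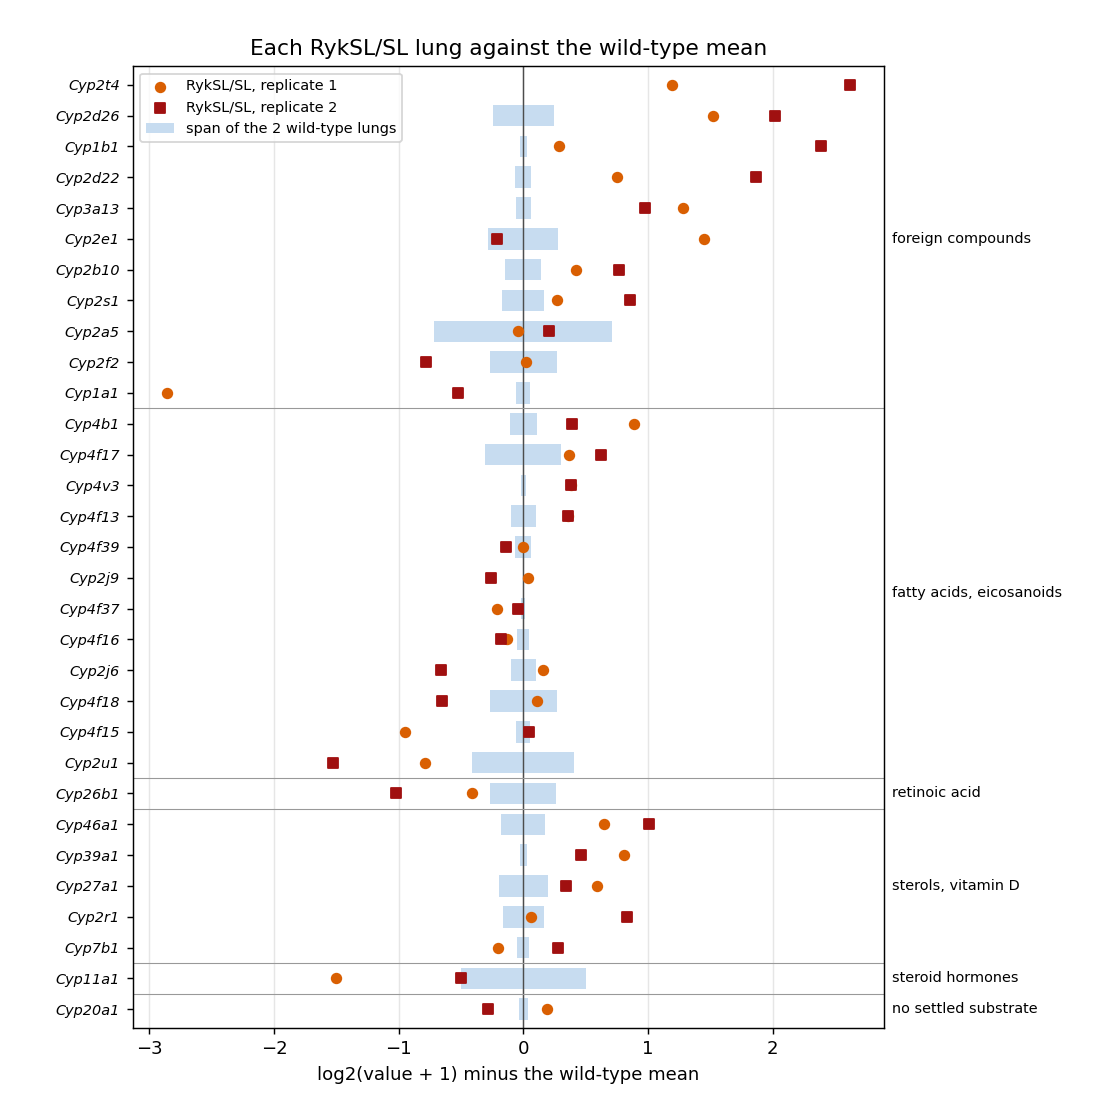
Difference of each mutant lung from the wild-type mean on the log2(value + 1) scale for the 31 P450 genes, grouped by substrate; orange circles are mutant replicate 1, red squares mutant replicate 2, and each blue bar spans the wild-type lungs around their mean. Both mutant points lie right of the bar in 14 genes, among them Cyp2t4, Cyp2d26, Cyp2d22, Cyp3a13, Cyp46a1 and Cyp39a1, while Cyp1a1, Cyp1b1 and Cyp2e1 each have 1 mutant point far from the other.

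Retinoic acid is broken down by family 26, of which only Cyp26b1 reached the level filter. Cyp26b1 (chromosome 6, positions 84571414 to 84593908) had 316 and 207 against 506 and 350. Both mutant values were lower, mutant replicate 1 by a small margin from wild-type replicate 2, and the log2 fold change of -0.72 ± 0.276 did not pass (limma, adjusted p = 0.229). It was -0.41 without mutant replicate 2, -0.45 without wild-type replicate 1, and -1.02 without mutant replicate 1. Among the other retinoid pathway genes tested, Dhrs3, which returns retinaldehyde to retinol, had 1928 and 2251 against 1075 and 1095 and rose (log2 fold change 0.94, adjusted p = 0.036). Among those that did not pass, the retinoic acid synthesis gene Aldh1a2 had 399 and 810 against 1417 and 1072 (adjusted p = 0.160) and Rdh10, which makes retinaldehyde, 401 and 479 against 546 and 583 (adjusted p = 0.276).

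Of 5 members that act on sterols and vitamin D, none passed, 3 lay above the wild type in both mutant lungs (60.0%, against 25.7% of all tested genes) and none below (26.9% of all). Cyp39a1 (chromosome 17, positions 43667425 to 43751431), an oxysterol hydroxylase, had 855 and 672 against 478 and 499. The genotypes did not overlap, and the log2 fold change was 0.63 ± 0.17 (limma, adjusted p = 0.128). Cyp46a1, which hydroxylates cholesterol in the brain, had 38 and 49 against 21 and 27 (0.83 ± 0.316, adjusted p = 0.224). Cyp27a1, a mitochondrial sterol hydroxylase, had 106 and 89 against 80 and 61 (0.47, adjusted p = 0.351), at 0.28 without wild-type replicate 2. Cyp2r1, a vitamin D hydroxylase, had 26 and 45 against 22 and 28, overlapping between genotypes, and its log2 fold change was 0.06 without mutant replicate 2 and 0.83 without mutant replicate 1. Cyp7b1, an oxysterol hydroxylase, also overlapped, with 73 and 102 against 87 and 81. Its log2 fold change of 0.04 became -0.038 with equal library totals, -0.20 without mutant replicate 2 and -0.01 without wild-type replicate 2.

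Among 11 tested partners in oxysterol and vitamin D metabolism 1 rose, where 1.47% of all tested genes were called higher. Abca1, the cholesterol efflux transporter gene, had 4980 and 4999 against 987 and 1324 (log2 fold change 2.12, limma, adjusted p = 0.0107). Ch25h, a cholesterol hydroxylase outside the P450 family, had 22 and 26 against 7 and 2 (adjusted p = 0.108), and the vitamin D receptor gene Vdr 186 and 272 against 88 and 118 (adjusted p = 0.098).

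Steroid hormone synthesis had 1 member, Cyp11a1, the mitochondrial enzyme that starts it from cholesterol. It had 4 and 9 normalized counts against 19 and 9, and wild-type replicate 2 equalled mutant replicate 2 (log2 fold change -1.0 ± 0.586, limma, adjusted p = 0.394). The difference was -0.5 without mutant replicate 1 or wild-type replicate 1 and -1.5 without mutant replicate 2 or wild-type replicate 2. Of its exons 145 bases overlap those of Gm17322 on the same strand. Of 17 tested steroid partner genes none passed; H6pd, which supplies NADPH to the enzyme named next, had 6257 and 5460 against 3126 and 3478 (adjusted p = 0.0587), and Hsd11b1, which uses it to regenerate active glucocorticoid, 2782 and 3252 against 1879 and 1780 (adjusted p = 0.0731). Of 5 adrenal cortex markers 2 were high enough to test and neither passed. Mc2r had 20 and 32 against 5 and 11 (log2 fold change 1.63, adjusted p = 0.160). Star had 139 and 191 against 130 and 115 (0.41), and both were higher in both mutant lungs. Akr1b7 went the other way, with 2 and 1 against 4 and 5. Nr5a1 had 3 and 4 against 3 and 2, and Hsd3b1 stood at 0 in all 4 libraries. The 5 summed to 164 and 228 against 142 and 133, mostly from Star. The part of adrenal RNA in the Cyp11a1 values was not tested. Cyp20a1, whose substrate is not settled, overlapped between genotypes, with 588 and 424 against 527 and 503 (-0.04, adjusted p = 0.926), and was 0.19 without mutant replicate 2.

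Genes for partners of P450s, electron supply among them, and for making or breaking down heme did not pass either. Of these, 0 of 22 were called, with a median log2 fold change of -0.13. Both mutant lungs lay above the wild type in 3 of them and below it in 9, where all tested genes gave 25.7% and 26.9%. Por had 2579 and 4265 normalized counts against 1685 and 1875 (log2 fold change 0.90 ± 0.249, limma, adjusted p = 0.136). As in Cyp1b1 and Cyp2d22, both mutant lungs were higher and mutant replicate 2 highest. Fdx1, the mitochondrial ferredoxin gene, had 1011 and 1198 against 688 and 686 (adjusted p = 0.0849), and Alad, an enzyme of heme synthesis, 486 and 456 against 691 and 776 (adjusted p = 0.0955). Of 18 tested receptor genes that regulate P450 transcription none passed. The receptors best known for inducing Cyp2b and Cyp3a genes, Nr1i3 and Nr1i2, lay below the filter, at 1 in every library and at 9 and 19 against 1 and 5.

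Some enzymes that act beside P450s did pass. Among all tested genes 1.47% were called higher and 0.917% lower in the mutant. Of 27 tested flavin monooxygenases and other oxidizing or hydrolysing enzymes, 2 rose and 1 fell. Fmo2, the main flavin monooxygenase of the lung, had 30224 and 24659 against 9221 and 11295 (log2 fold change 1.42, limma, adjusted p = 0.0315), and Xdh, xanthine dehydrogenase, had 3648 and 3729 against 622 and 814 (2.37, adjusted p = 0.0066). The alcohol dehydrogenase gene Adh1 fell by 1.71, with 2302 and 1938 against 6903 and 6958 (adjusted p = 0.0109). Fmo5 had a log2 fold change of 0.88 and did not pass (adjusted p = 0.0629). Of 33 tested conjugating enzymes 2 rose, the sulfotransferase gene Sult1a1 (1.67, adjusted p = 0.0109) and the methyltransferase gene Inmt (1.65, adjusted p = 0.0152); Sult1d1 (1.25) and the glutathione transferase gene Gstt1 (-1.03) did not pass. Whether these genes differ from the P450 members in their response was not tested.

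P450 genes under other names and the eicosanoid partners did not pass. Ptgis, the prostacyclin synthase, had 1122 and 1367 against 713 and 680 (log2 fold change 0.83, limma, adjusted p = 0.0596), and Tbxas1, the thromboxane synthase, 85 and 59 against 152 and 139 (-1.03, adjusted p = 0.106). Cyp51, the sterol demethylase left out by the rule, had 488 and 962 against 1036 and 1002 with mutant replicate 1 lowest, and Cyp2ab1 had 16 and 21 against 16 and 13. Of 16 tested eicosanoid genes none passed, with Ptges, a prostaglandin E synthase, at 196 and 134 against 338 and 440 (adjusted p = 0.0683). Glucocorticoid target genes, a list chosen with these results known, stood beside the P450 values with 11 of 13 called higher (Zbtb16, Ddit4, Fkbp5, Cdkn1a, Tsc22d3, Pdk4, Klf9, Errfi1, Per1, Sgk1 and Dusp1). The other members of that list, Mt1 and Mt2, had log2 fold changes of 0.59 and 0.89 and did not pass. The part of these genes' differences in the P450 values was not tested.

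The calls among these accompanying genes depended on the processing. Calls from fits with 1 lung left out are not given for these genes, since 1 genotype then holds a single lung. With quantile normalization Sgk1 and Dusp1 missed the threshold in limma (adjusted p = 0.0562 and 0.057), as they did with equal library totals (0.0609 and 0.0537). Without the variance trend Fmo2, Adh1, Sult1a1, Inmt, Abca1, Dhrs3, Klf9, Errfi1, Per1, Sgk1 and Dusp1 did not pass, with adjusted p from 0.0522 to 0.111.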

How the data were processed

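RNA from 4 lungs, 2 per genotype, was made into stranded poly(A) libraries (TruSeq) from 3 micrograms each, per the labels' protocols. Per the submitters' processing notes, FastQC, STAR 2.4.0a, featureCounts 1.5.1, Subread and DESeq2 1.14.1 were used, on builds mm10 and GRCm38. How strand and multiply aligned reads were handled is not stated there. The values the authors deposited are whole numbers marked as normalized, and are treated as a score, since the scaling is not stated; no count model was run. Library totals lay between 18658239 and 19987634, and values under about 10 carry large counting error.

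The test was limma 3.58.1 (R 4.3.3) with a trended prior variance on log2(value + 1), for the genes that averaged at least 10, with Benjamini-Hochberg adjustment, checked on simulated data. Alternatives were other pseudocounts, filters, scalings and variance models, a replicate block, and leaving out each library. Exon lengths, overlaps of at least 100 bases and shared 50-base sequences (either strand) came from GENCODE release M21 (GRCm38), promoters from RefSeq. Python 3.11.15, pandas 2.3.3, numpy 2.4.6 and matplotlib 3.10.9 served the other steps.

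Named were all members, and of each accompanying gene list every called gene and up to 2 others with the smallest p; some items that this selects are not reported here. The members and lists were chosen with earlier results of these data known. Markers of other cell types in the lobe were also listed. Of 10 ciliated, 8 alveolar type 1, 8 smooth muscle and pericyte, 8 endothelial and 6 mesothelial genes tested none was called, against 2.39% of all tested genes. Called lower were 1 of 10 alveolar type 2, 1 of 8 macrophage, 1 of 7 heart and 1 of 4 lymphocyte genes. Of 9 fibroblast genes 2 were called higher and 2 lower. None of 1 adipocyte and 2 adrenal cortex genes tested was called. Both mutant lungs lay below both wild-type lungs in 8 macrophage, 7 alveolar type 2, 6 heart and 5 endothelial genes and above in none. Below and above, fibroblast genes gave 5 and 2, alveolar type 1 genes 4 and 1. Ciliated genes gave 1 and 2, smooth muscle and pericyte 1 and 1, mesothelial 0 and 1. All tested genes gave 26.9% below and 25.7% above. The part of cell make-up in the P450 values was not tested.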

Additional observations from a re-analysis of the deposited data

How the results depend on the processing

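With 2 lungs per genotype, no P450 member was called in limma with pseudocounts of 0.5 and 8 or with no filter on low values. The number also stayed at 0 with a mean of at least 50, quantile normalization, equal library totals, no variance trend and robust variances. At an unadjusted p under 0.05 in limma, no filter gave 7 of 31 members, against 4876 of 31939 tested genes. A mean of at least 50 gave 7 of 22 members, against 3090 of 14700 tested genes. The other settings gave 8 to 11 of 31 members, against 3425 to 3790 of 18436 tested genes. These counts do not bear on a shift of P450 genes as a group. With the replicate block 2 members were called, Cyp2d22 (adjusted p = 0.0212) and Cyp3a13 (0.0461). The deviations of same-numbered libraries had a correlation of -0.0579 over 18436 genes, so the numbers were not taken to pair the samples. Leaving out 1 library at a time gave between 0 and 3 members. Over all genes, the 440 calls became 0 with no filter (4876 at an unadjusted p under 0.05), 72 without the trend and 766 with the replicate block, and between 0 and 2385 with 1 library left out; the causes were not tested. Only Cyp7b1 changed direction with scaling, to -0.038 with equal library totals. With 1 library left out, log2 fold changes that changed sign ranged from -0.947 to 0.053 in Cyp4f15, -0.66 to 0.16 in Cyp2j6, -0.65 to 0.11 in Cyp4f18, -0.257 to 0.044 in Cyp2j9, -0.14 to 0.001 in Cyp4f39, -0.28 to 0.19 in Cyp20a1, -0.20 to 0.28 in Cyp7b1, -0.78 to 0.02 in Cyp2f2, -0.21 to 1.45 in Cyp2e1 and -0.63 to 0.80 in Cyp2a5. Every accompanying gene called in the report lost its call with no filter, since no gene passed there. With a mean under 50 in 9 members, counting error limits what their values can show.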
